A study of Mus musculus with 12 samples.

Results

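Fibroblast growth factor (FGF) signaling was examined in murine hip cartilage through 10 genes: the ligands Fgf2 and Fgf18, the receptors Fgfr1, Fgfr2 and Fgfr3, the feedback inhibitors Spry1, Spry2, Spry4 and Spred1, and the target transcription factor Etv5. They were picked by gene symbol, and every probe with one of these symbols was taken. The array carried 16 such probes for 9 of the 10 genes, and Spry1 had none. The deposited normalized table held 10 of the 16 probes, for 8 of the 10 genes, among 21004 probes with 15424 gene symbols.

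RNA was measured on Illumina mouse BeadChips, which carry gene probes on coated beads, in 4 groups of 3 arrays from C57BL6 mice aged 4 to 6 weeks by their labels. WT and Mapk9 KO mice each gave a control and an injured group, and the tissue was hip cartilage in all of them. Mapk9 encodes JNK2, a c-Jun N-terminal kinase, and no label gives the kind of knockout allele. Each replicate pooled hips of several mice, and injury was avulsion of the femoral epiphysis. Only the injured hips then spent 4 h in culture, the controls being frozen at once, so that injury and culture cannot be told apart.

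FGF ligands bind receptor tyrosine kinases together with heparan sulfate and switch on the RAS and ERK cascade. The cascade induces its own inhibitors, the Sprouty and Spred proteins, and transcription factors of the Etv family. In cartilage, Fgf2 is stored in the matrix around the cells and is set free when the tissue is loaded or cut, Fgfr3 is the receptor that restrains growth plate chondrocytes and is held to protect articular cartilage, and Fgf18 acts on chondrocytes largely through Fgfr3.

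The sequences of the Fgf2, Fgf18, Fgfr2 and Fgfr3 probes, behind most of the changes below, and of the Etv5 pair show what was measured, and that of the Spry4 probe is not printed. The first 30 of the 50 bases of each probe are given, 5′ to 3′ as deposited and with no base singled out.
Fgf2: cgggacctggacagaaggccatactgtttc
Fgf18: gctaggtccggccacactcacccccccaga
Fgfr2 dimmer probe: gagtgaatgtgtcttcctgtccccaaacag
Fgfr2 brighter probe: ttgctttggatacgcccactcactttgcta
Fgfr3: agctccagctcgtccggagatgactcggtg
Etv5 dimmer probe: ggaatttgctgtccttgacactccacacat
Etv5 brighter probe: aatttgctgtccttgacactccacacattg

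The Fgfr2 probes lie apart: the dimmer one starts at base 2797 of its target transcript and the brighter one at base 19 of its own, and the longest run of bases they share is 4. The Etv5 probes start at bases 3122 and 3124 and share a run of 31 bases, so that they read nearly the same stretch and are not separate evidence. The Fgf2 probe starts at base 412 and the Fgfr3 probe at base 2624 of the target transcript. No build is named for the positions in the files, so none on a chromosome is given for the probes.

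Of the genes named here, Mapk9 was checked first. Its brighter probe was lower in Mapk9 KO by 1.57 on the log2 scale in control hips (SE 0.21, limma adjusted p = 0.0151) and by 1.57 in injured hips (SE 0.18, limma adjusted p = 0.00485), and was still detected on all 12 arrays. A second Mapk9 probe was detected on 4 arrays, all of them WT. Between 16930 and 18969 probes were detected per array, where detected means a deposited detection p-value under 0.05, and correlations between arrays lay between 0.868 and 0.986.

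Markers of other tissues moved with injury, and these values stand beside every injury change below. Chondrocyte markers were present in all groups, with a list mean between 10.02 and 12.01 on the log2 scale over the 12 arrays, and 9 of 13 tested rose in each genotype. Skeletal muscle markers fell for 12 of 15 genes in WT and 15 of 15 in Mapk9 KO. Their list mean lay between 10.67 and 12.49 in WT controls, 12.53 and 12.87 in Mapk9 KO controls, 7.95 and 9.95 in WT injured hips and 8.42 and 9.59 in Mapk9 KO injured hips. Of 6 fibroblast and synovium markers 4 fell in WT and 5 in Mapk9 KO, of 6 adipocyte markers 3 and 4, of 9 bone markers 3 and 5, and of 8 macrophage markers 5 and 6, with 1 macrophage marker, Cd14, higher in both. Of 8 neutrophil markers 5 rose in each genotype, of 6 erythroid markers 1 fell in each, and of 7 endothelial markers 1 rose in WT and 0 passed in Mapk9 KO. These counts take a gene with any probe past the threshold. Of all probes, 7.55% rose and 7.14% fell in WT, and 9.59% rose and 9.14% fell in Mapk9 KO. In bulk tissue, fewer cells of a type and less RNA per cell cannot be told apart, and the part of these tissues in the FGF results was not tested.

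**Figure D1:**
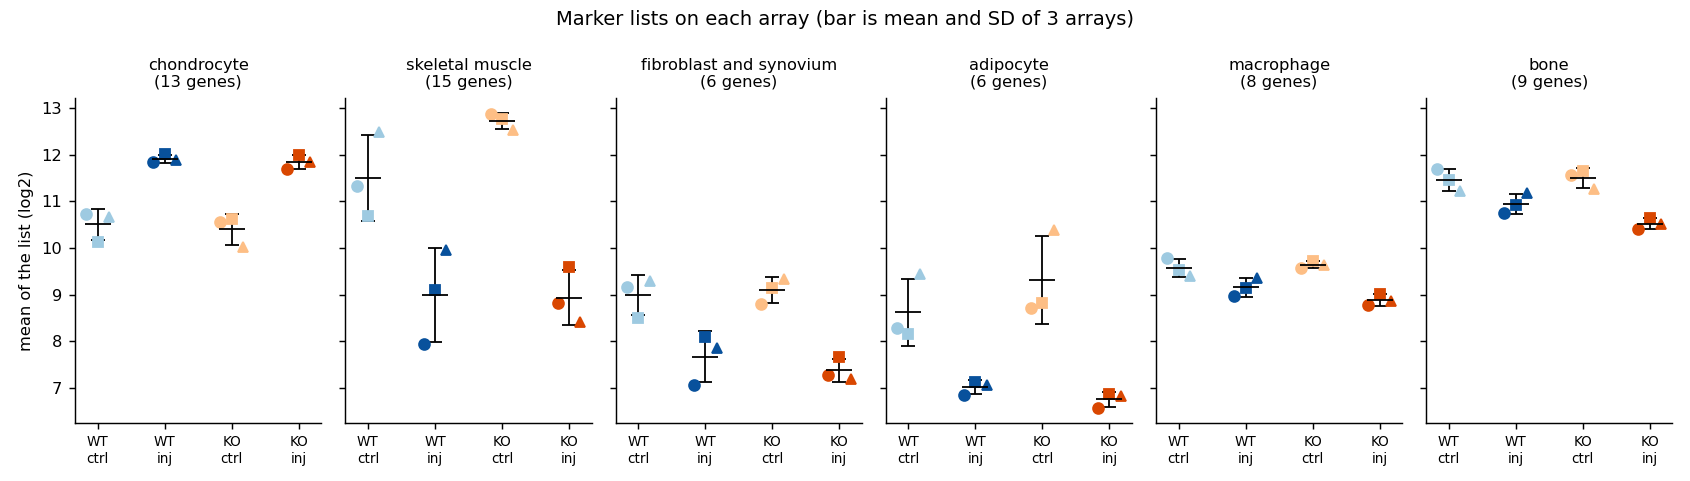
Mean of each marker list (log2, y axis) on the 12 arrays, by group, with circles, squares and triangles for replicates 1, 2 and 3 and bars for mean and SD of 3 arrays. The skeletal muscle list lay between 10.67 and 12.49 in WT controls and between 12.53 and 12.87 in Mapk9 KO controls, and was below 10 on every injured array.

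In WT hips, injury raised the ligand Fgf2 and lowered the receptor Fgfr2, and no other member passed the threshold of a fold change above 2 with an adjusted p under 0.05. That is 1 of 8 genes up and 1 down, where 7.55% of all probes were up and 7.14% down. In Mapk9 KO hips, Fgf2, Fgf18, Fgfr3 and Spry4 rose and Fgfr2 fell. That is 4 of 8 genes up and 1 down, where 9.59% of all probes were up and 9.14% down. Fgfr1, Spred1 and Etv5 passed in neither genotype. Over the main probe of each gene, the brightest over all arrays, the median change of the 8 genes was 0.09 in WT and 0.77 in Mapk9 KO on the log2 scale, beside -0.02 in both over all probes.

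**Figure D2:**
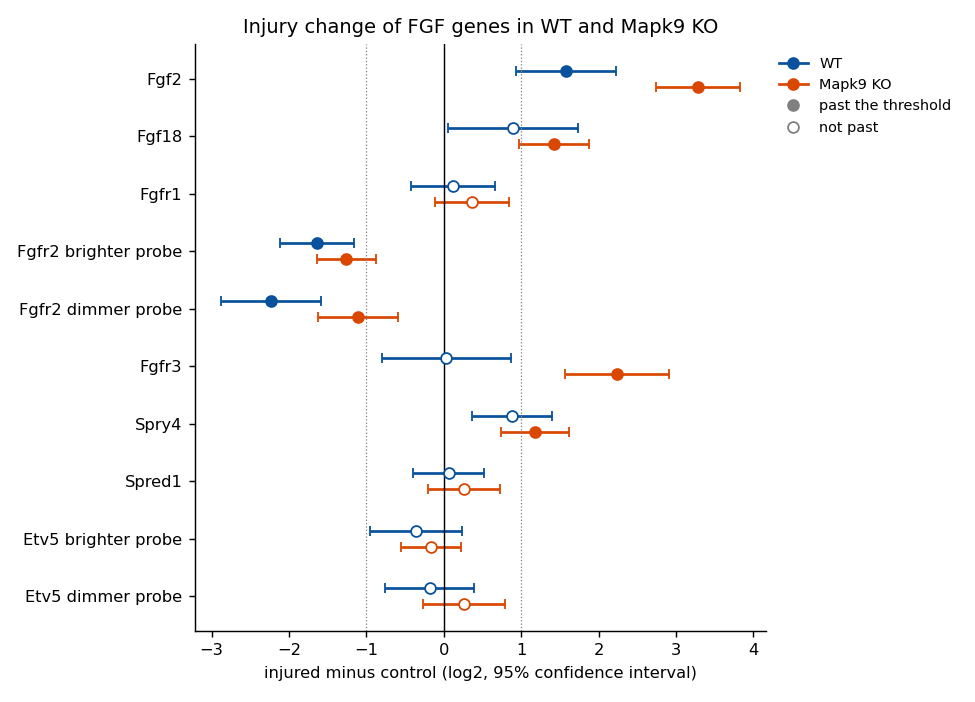
Injured minus control (log2, x axis) for each probe of the FGF genes in WT and Mapk9 KO, from limma with 3 arrays per group. Bars are 95% confidence intervals, filled points passed the threshold, and dotted lines mark a fold of 2. Fgfr3 stood at 0.03 in WT and 2.24 in Mapk9 KO, and both Fgfr2 probes lay below -1 in each genotype.

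Of the 2 member ligands, Fgf2 passed in both genotypes. Its normalized log2 values were 4.75, 4.06 and 5.27 on the WT control arrays and 6.27, 6.11 and 6.43 on the WT injured arrays. They were 3.91, 4.47 and 3.95 on the Mapk9 KO control arrays and 7.85, 7.02 and 7.31 on the Mapk9 KO injured arrays. Injured arrays were above every control array in both genotypes, and every Mapk9 KO injured array was above every WT injured array.

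The Fgf2 probe was not well above background on any of the 6 control arrays and was detected on all 6 injured arrays. Against the lowest detected signal, Fgf2 was at least 1.34-fold higher after injury in WT and at least 2.76-fold higher in Mapk9 KO. The fitted differences, which decided the threshold here and for the other dim probes, were 1.58 on the log2 scale in WT (SE 0.29, limma adjusted p = 0.00344) and 3.29 in Mapk9 KO (SE 0.24, limma adjusted p = 3.11e-06). The rise in WT held in all 6 fits that left out 1 array, with an adjusted p of at most 0.0156. It was lost in WT with the methods' t-test (adjusted p = 0.0726) and with quantile normalization without background correction, where the change was 0.50. In Mapk9 KO the change was 2.45 with neqc, a background correction and quantile normalization of the raw signals, and 1.17 with quantile normalization alone, and passed with both.

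Fgf18, a ligand of the same family that promotes cartilage matrix formation, had values of 5.88, 4.10 and 5.33 on the WT control arrays and 6.04, 6.06 and 5.88 on the WT injured arrays. They were 4.99, 4.76 and 5.19 on the Mapk9 KO control arrays and 6.72, 6.17 and 6.33 on the Mapk9 KO injured arrays. Groups did not overlap in either genotype, although WT control 1 and WT injured 3 were nearly level, and the WT control arrays spanned the widest range of the 4 groups.

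In Mapk9 KO the Fgf18 probe was detected on no control array and on all 3 injured arrays, at least 1.38-fold higher, with a fitted difference of 1.42 (SE 0.20, limma adjusted p = 0.000285). In WT it was detected on 1 control array, and the difference of 0.90 (SE 0.38, limma adjusted p = 0.113) did not pass. Leaving out WT control 1 gave 1.28 in WT with an adjusted p of 0.0346, past the threshold, and leaving out WT control 2 gave 0.39 with an adjusted p of 0.255. With quantile normalization without background correction the Mapk9 KO change was 0.47 and under the fold limit. Its other probe was detected on 0 of 12 arrays.

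Among the receptors, Fgfr2 fell in both genotypes on both of its probes in the table. The brighter probe read 12.36, 12.21 and 11.92 on the WT control arrays and 10.30, 10.76 and 10.52 on the WT injured arrays. It read 11.63, 11.94 and 11.66 on the Mapk9 KO control arrays and 10.41, 10.53 and 10.52 on the Mapk9 KO injured arrays. All control arrays were above all injured arrays, and the injured arrays of both genotypes covered much the same range.

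The brighter Fgfr2 probe fell by 1.63 on the log2 scale in WT (95% confidence interval -2.11 to -1.16, limma adjusted p = 0.000523) and by 1.26 in Mapk9 KO (-1.64 to -0.88, limma adjusted p = 0.000221). It passed the threshold in each genotype in all 6 fits that left out 1 array and in all 13 other settings. The dimmer probe read 8.99, 7.88 and 8.33 in WT controls, 5.86, 6.22 and 6.43 in WT injured hips, 7.72, 7.54 and 7.91 in Mapk9 KO controls and 7.004, 6.13 and 6.71 in Mapk9 KO injured hips. It fell by 2.23 in WT (SE 0.29, limma adjusted p = 0.000489) and by 1.11 in Mapk9 KO (SE 0.23, limma adjusted p = 0.0035). Without Mapk9 KO injured 2, its fall in Mapk9 KO was 0.865 in size and no longer past the fold limit, the methods' t-test gave an adjusted p of 0.0559, and quantile normalization without background correction gave -0.63, under the fold limit. With that normalization the Fgfr2 dimmer probe changed by -1.27 in WT, still past the threshold. A further pair of Fgfr2 probes outside the table were detected on 1 array and on 0 arrays.

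Fgfr3 was the receptor whose injury change differed most between the genotypes. It read 7.93, 6.60 and 7.27 on the WT control arrays and 7.90, 6.67 and 7.34 on the WT injured arrays, so that the WT groups covered the same range. It read 6.58, 5.65 and 5.97 on the Mapk9 KO control arrays and 8.60, 7.67 and 8.65 on the Mapk9 KO injured arrays. Every Mapk9 KO control array was below every WT control array, and every Mapk9 KO injured array was above every Mapk9 KO control array.

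In WT the change of Fgfr3 was 0.03 (95% confidence interval -0.80 to 0.86, limma adjusted p = 0.965). In Mapk9 KO it rose by 2.24, or 4.73-fold (95% confidence interval 1.57 to 2.91, limma adjusted p = 0.0002), with the probe detected on 2 of the 3 control arrays and on all injured arrays. Deposited detection p-values on the Mapk9 KO control arrays were 0.016, 0.063 and 0.044, so this fold rests on control values near background. The rise in Mapk9 KO passed in all 6 fits that left out 1 array and in all 12 other settings, the smallest change being 1.29 with quantile normalization without background correction. The second Fgfr3 probe was detected on 0 arrays, so this result rests on 1 probe.

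Fgfr1, the most widely expressed of the receptors, was detected on all 12 arrays and lay between 7.42 and 8.31. Its injury change was 0.12 in WT (95% confidence interval -0.42 to 0.67) and 0.37 in Mapk9 KO (-0.11 to 0.84), and neither passed. All groups overlapped. Its other probe was detected on 0 arrays.

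**Figure D3:**
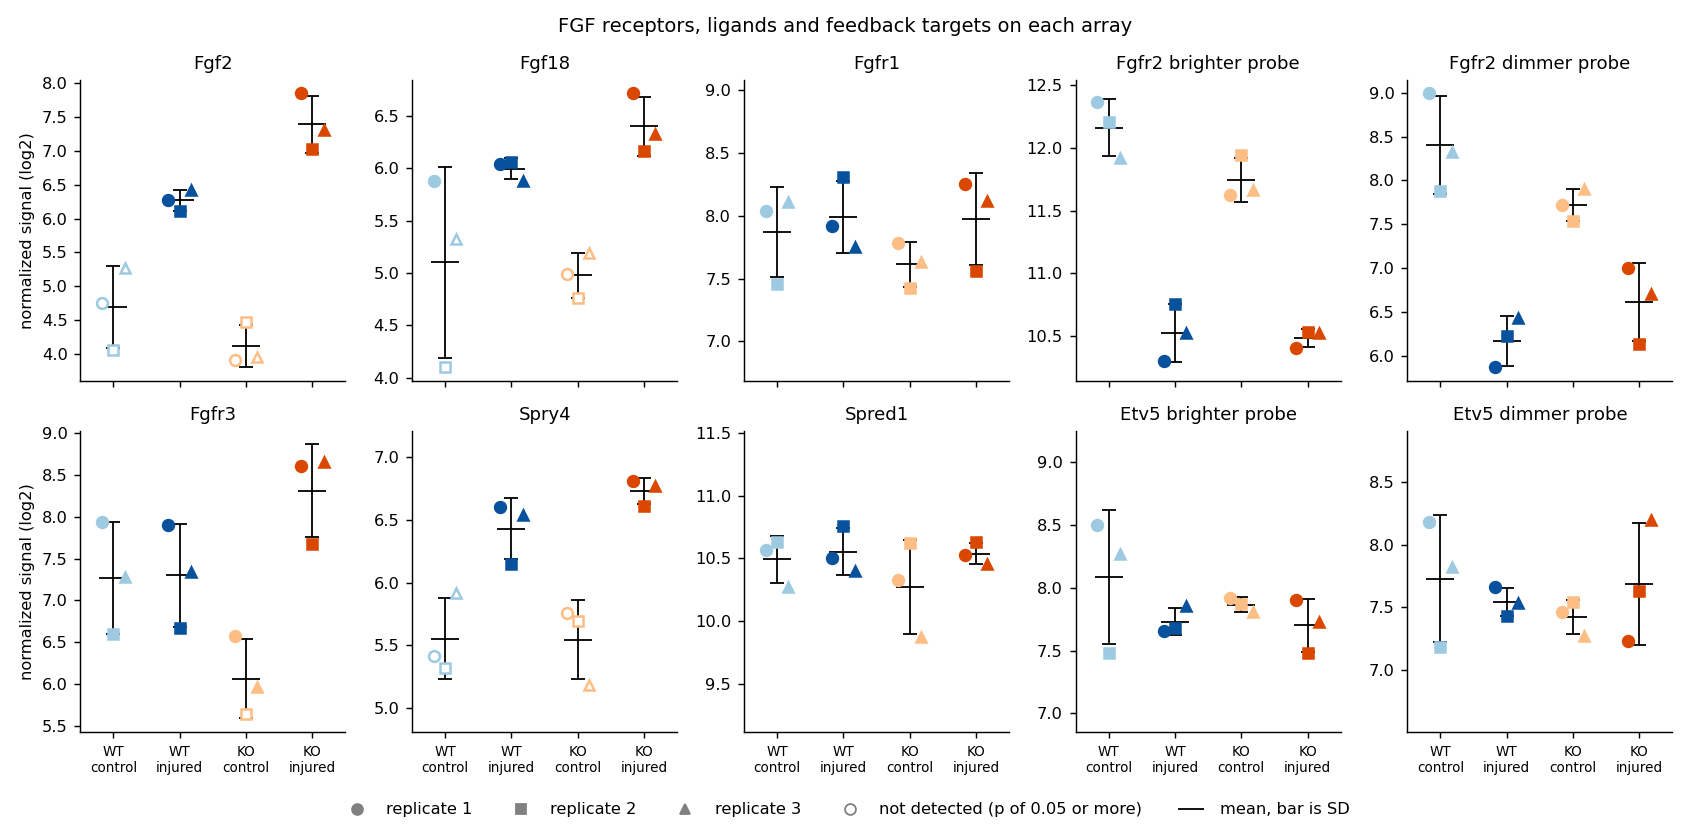
Normalized signal (log2, y axis; each panel has its own range of at least 2.4) of each FGF probe on the 12 arrays, by group. Symbols give the replicate, open symbols arrays where the probe was not detected, and bars the mean and SD of 3 arrays. Fgf2 and Spry4 were detected only on the 6 injured arrays, both Fgfr2 probes were lower on every injured array than on any control array, and Fgfr3 was higher on injured than on control arrays in Mapk9 KO alone.

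The feedback genes gave fewer values, because Spry1 had no probe and the Spry2 probe, with raw signals between 93.3 and 131, was detected on 0 arrays. A predicted locus named as similar to sprouty 1 had 2 probes, detected on 0 arrays, and was not counted as Spry1. Spry4, a Sprouty protein that blocks RAS activation below the receptor, read 5.42, 5.32 and 5.92 in WT controls and 6.60, 6.15 and 6.54 in WT injured hips. It read 5.76, 5.69 and 5.19 in Mapk9 KO controls and 6.81, 6.61 and 6.77 in Mapk9 KO injured hips. Like Fgf2, it was detected on every injured array and on no control array.

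Spry4 was at least 1.73-fold higher after injury in Mapk9 KO, with a fitted difference of 1.18 that passed (SE 0.20, limma adjusted p = 0.000829). In WT it was at least 1.499-fold higher, with a fitted difference of 0.88 (SE 0.23, limma adjusted p = 0.0201) that met the adjusted p but not the fold limit. The WT result hung on single arrays. Without WT control 3 the difference was 1.06 and without WT injured 2 it was 1.02, both past the threshold, while the adjusted p was 0.0712 without WT control 1, 0.0741 without WT injured 1, 0.0732 without WT injured 3 and 0.0929 with the methods' t-test. In Mapk9 KO quantile normalization without background correction gave 0.47, under the fold limit. The 2 genotypes therefore fell on different sides of the fold limit with intervals that overlapped (0.36 to 1.39 in WT and 0.75 to 1.62 in Mapk9 KO).

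Spred1, a membrane-bound inhibitor of the same cascade, was bright on all 12 arrays, between 9.87 and 10.76. Its injury change was 0.06 in WT (95% confidence interval -0.39 to 0.52) and 0.27 in Mapk9 KO (-0.20 to 0.73). Etv5, an ETS factor induced by ERK, lay between 7.48 and 8.50 on its brighter probe, which changed by -0.35 in WT (-0.95 to 0.24) and -0.16 in Mapk9 KO (-0.55 to 0.22). On the dimmer probe the values were -0.18 and 0.26. None passed, and all their groups overlapped.

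Genotype by itself was compared in control and in injured hips. No member passed in control hips, where 0.119% of all probes did. Without WT control 3, 412 of all probes passed against 25 with it, and still no member. Fgfr3 came nearest to it, 1.20 lower in Mapk9 KO on the log2 scale (95% confidence interval -1.97 to -0.44), with an unadjusted limma p of 0.00537 and an adjusted p of 0.547. It was lower in Mapk9 KO at each of the 3 replicate numbers, by 1.36, 0.949 and 1.31 as sizes of the difference. The dimmer Fgfr2 probe was 0.68 lower (limma adjusted p = 0.724). The other members differed by less than that, and apart from Fgfr3 the WT and Mapk9 KO controls overlapped for every probe.

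In injured hips no member passed either, where 0.181% of all probes did. Fgf2 was 1.13 higher in Mapk9 KO (95% confidence interval 0.63 to 1.62, limma adjusted p = 0.139), higher at 3 of 3 replicate numbers. Fgfr3 was 1.01 higher (0.26 to 1.76, limma adjusted p = 0.28), also at 3 of 3 replicate numbers. Arrays with the same replicate number deviated together, and with the number as a block the Fgfr3 difference passed narrowly (limma adjusted p = 0.04998) and the Fgf2 difference did not (adjusted p = 0.0523). Under the same block 0.895% of all probes passed. Fgf18 was 0.41 higher and Spry4 0.30 higher, without overlap of the groups but with limma adjusted p of 0.4 and 0.523.

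Whether injury acted differently in the 2 genotypes was tested as an interaction over all 12 arrays. By limma 0 of 21004 probes passed (0%), against 2088 at an unadjusted p under 0.05 (9.94%). The injury change in Mapk9 KO minus that in WT was 2.21 for Fgfr3 (SE 0.54, unadjusted p = 0.00118, limma adjusted p = 0.312) and 1.71 for Fgf2 (SE 0.41, unadjusted p = 0.000932, limma adjusted p = 0.311). Quantile normalization without background correction gave 1.23 for Fgfr3 and 0.67 for Fgf2, with a limma adjusted p of 0.222 for both. It was 1.12 for the dimmer Fgfr2 probe (limma adjusted p = 0.382) against 0.38 for the brighter one (adjusted p = 0.663). For Fgf18, Fgfr1, Spry4, Spred1 and Etv5 it lay between 0.19 and 0.53.

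With the replicate number as a block, 112 probes passed (0.533%), and Fgfr3 was the member among them. Its SE fell from 0.54 to 0.23, and its limma adjusted p was 0.0137. Within replicate numbers the injury change of Fgfr3 was -0.04, 0.07 and 0.06 in WT and 2.02, 2.02 and 2.68 in Mapk9 KO. All 3 Mapk9 KO values were far above all 3 WT values, and replicate 1 had the highest and replicate 2 the lowest Fgfr3 level in both WT groups.

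The interaction of Fgf2 did not pass with the block either (limma adjusted p = 0.0895), and it rests in part on control values below background. Only the injured arrays measured Fgf2, and there Mapk9 KO minus WT was 1.58, 0.91 and 0.89 at the 3 replicate numbers, above 0 at each. An exact permutation test of 3 values against 3 cannot give a p under 0.1. No member passed the unblocked interaction in any of 12 fits that left out 1 array, among them the fit without WT control 3, in which 242 of all probes did.

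**Figure D4:**
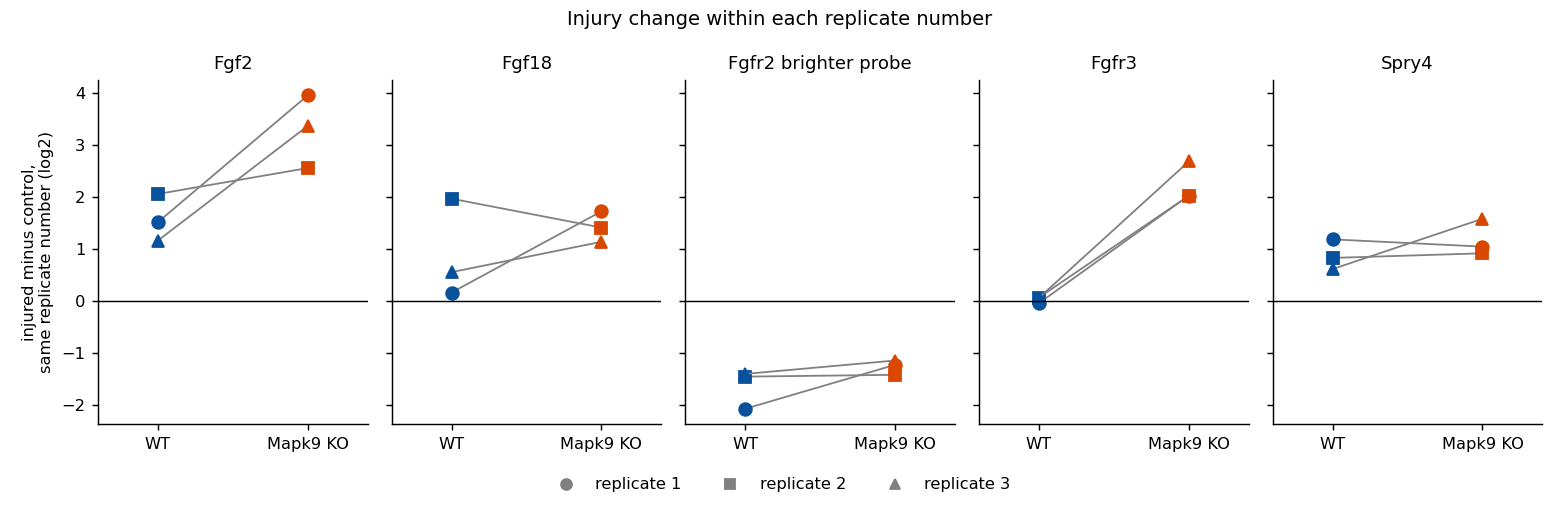
Injured minus control at the same replicate number (log2, y axis) in WT and Mapk9 KO, with grey lines joining the same number. Fgfr3 stayed between -0.04 and 0.07 in WT and between 2.02 and 2.68 in Mapk9 KO, and the brighter Fgfr2 probe lay between -2.06 and -1.14 throughout.

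Levels of tissue markers ran beside these genotype values. The muscle list mean was highest in Mapk9 KO controls (12.87, 12.77 and 12.53), the group with the lowest Fgfr3, and stood at 11.32, 10.67 and 12.49 in WT controls. In injured hips the list mean was 7.95, 9.09 and 9.95 in WT and 8.81, 9.59 and 8.42 in Mapk9 KO, and the chondrocyte list was 11.9 ± 0.09 (SD, n = 3) and 11.8 ± 0.15 (SD, n = 3). The bone list was 10.75, 10.92 and 11.18 on the WT injured arrays and 10.41, 10.64 and 10.52 on the Mapk9 KO injured arrays, without overlap. In injured hips 7 of the 9 marker lists were lower in Mapk9 KO than in WT at each of the 3 replicate numbers: bone, macrophage, adipocyte, neutrophil, erythroid, endothelial and chondrocyte. The muscle and fibroblast lists were not. In control hips the muscle, neutrophil and adipocyte lists were higher in Mapk9 KO at each number, the adipocyte list at 8.71, 8.83 and 10.39 against 8.28, 8.15 and 9.45. The part of these tissues in the genotype differences was not tested.

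Taking both genotypes as one, the average injury effect over 12 arrays passed for Fgf2 (2.43), Fgf18 (1.16), Fgfr3 (1.14), Spry4 (1.03) and both Fgfr2 probes (-1.45 and -1.67), with limma adjusted p between 3.62e-07 and 0.00331. That is 4 of 8 genes up and 1 down, where 8.06% of all probes were up and 7.91% down. The averages of Fgfr3 and Spry4 were close to the fold limit. Fgfr3 was lost without WT control 2 (0.97) or WT injured 1 (0.99), and Spry4 without any of 4 arrays, with a lowest value of 0.94. Fgf18 was lost without WT control 2 (0.91) and with neqc (0.88). Quantile normalization without background correction put 5 of the 6 probes under the fold limit, with averages of 0.84 for Fgf2, 0.37 for Fgf18, 0.67 for Fgfr3, 0.41 for Spry4 and -0.95 for the Fgfr2 dimmer probe, and kept the Fgfr2 brighter probe past it (-1.48).

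The other genes of the pathway were listed by role, and are to be read against the same shares of all probes up and down as the members. Of 20 further FGF ligands 6 were in the normalized table. Fgf21, a metabolic hormone of the family, was at least 2.44-fold higher after injury in WT and at least 1.97-fold higher in Mapk9 KO, with limma adjusted p of 1.45e-05 and 0.000288. Fgf13, an intracellular FGF that does not bind the receptors, fell by 1.44 in WT and 1.72 in Mapk9 KO on its brighter probe. Fgf7, the keratinocyte growth factor made by mesenchymal cells and a ligand of an Fgfr2 splice form, fell by 1.30 in WT (limma adjusted p = 0.00782) and changed by -0.75 in Mapk9 KO, under the fold limit. Fgf6, a ligand of skeletal muscle, passed downwards in both genotypes, but was detected on 1 array in all, so that no fold is given.

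Of 17 further receptors, heparan sulfate carriers and binding proteins 12 were tested. The syndecan Sdc2 fell by 1.31 in WT and 1.32 in Mapk9 KO, and Flrt2, a membrane protein that binds FGF receptors, by 1.57 and 1.94, with limma adjusted p of at most 0.00172. Sdc1 passed in WT on its dimmer probe, where control hips were at least 2.02-fold higher, but not on its brighter probe (-0.64), nor in Mapk9 KO on either. The other 9 did not pass in WT, or 10 in Mapk9 KO.

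Of 18 further feedback and target genes 14 were tested, and 8 rose and 1 fell in each genotype on at least 1 probe, where 7.55% of all probes were up and 7.14% down in WT and 9.59% and 9.14% in Mapk9 KO. The count takes a gene with any probe past the threshold, while the shares are per probe, so they are unlike measures. Dusp4 is in the count through its dimmer probes alone. Fosl1, an AP-1 subunit induced by ERK, was at least 8.94-fold higher in WT and at least 8.48-fold higher in Mapk9 KO. Phlda1 rose by 2.84 and 3.09 on the log2 scale and the early response factor Egr1 by 1.19 and 1.68. Maff, a small Maf factor, was at least 1.48-fold and 1.53-fold higher, and Lif, an interleukin 6 family cytokine, at least 1.71-fold and 1.60-fold higher.

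Spry3, another Sprouty gene, and Cbl, a ubiquitin ligase that sends receptors to degradation, passed upwards in both genotypes with probes detected on 3 arrays each. Neither was detected on any control array. Against the lowest detected signal, Spry3 was at least 1.0088-fold higher in Mapk9 KO. No rise could be bounded for Spry3 in WT or for Cbl in either genotype, so these calls rest on values below background. Dusp4, an ERK phosphatase, rose on 2 dimmer probes, by 2.76 and 1.25 in WT, and in Mapk9 KO by 2.47 on one and at least 2.17-fold on the other, which no array of its controls detected, while its brightest probe changed by -0.39 and -0.72 and did not pass. Etv1, an ETS factor of the same group as Etv5, was at least 1.88-fold lower in WT and at least 1.78-fold lower in Mapk9 KO on its brightest probe. Many of these genes also answer to other signals, and the share of FGF signaling in their change was not tested.

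**Figure D5:**
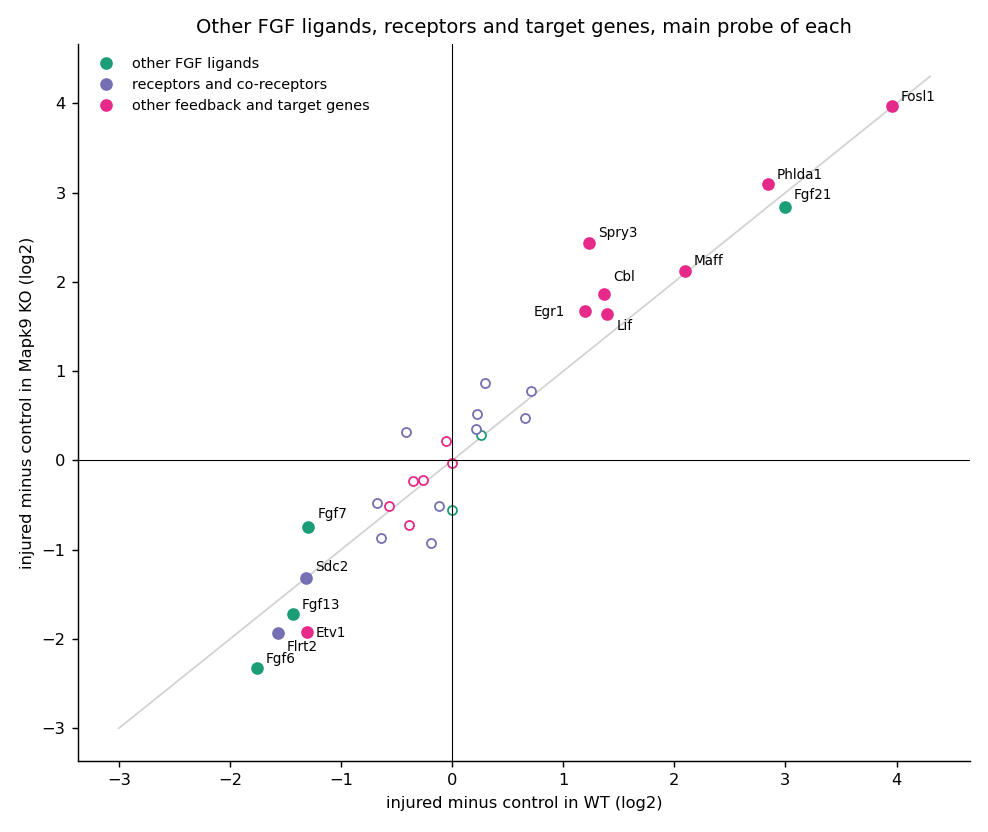
Injured minus control in WT (x axis) and in Mapk9 KO (y axis), both log2, for the main probe of each further ligand, receptor or co-receptor, and feedback or target gene of the FGF pathway, colored by role. Filled points passed the threshold in at least 1 genotype, the grey line marks equal change, and Dusp4 and Sdc1, which passed on other probes, are open points here. Points are fitted differences, and for genes not detected in a group, such as Fosl1 in controls, they rest on values below background. Phlda1 lay at 2.84 and 3.09, and Flrt2 at -1.57 and -1.94.

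Genes whose main probe ran most like each member over the 12 arrays were looked up among 14786 gene symbols, as a description, since all 12 arrays share the same injury contrast. Fgfr2 ran closest to Pdgfra, a receptor of fibroblasts that is on the fibroblast list (Pearson r = 0.990), and to 3110050N22Rik (0.990). Fgf2 ran closest to 9330196J05Rik (0.982) and Adamts1 (0.978), a matrix protease, and Fgf18 to the chemokine Cx3cl1 (0.983) and Actn4 (0.977). Fgfr3 ran closest to 4833416I09Rik (0.958) and Rnf138 (0.942). Spry4 ran closest to 9530062N20Rik (0.965) and Dhrs9 (0.958), Spred1 to Cask (0.941) and Trps1 (0.935), and Etv5 to Tmem98 (0.923) and Nuak1 (0.919). For Fgfr1 the closest were A530072M07Rik (0.849) and R74862 (0.836), the lowest values of the set.

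Promoter windows of the 250 bases before a listed start were found in RefSeq (GRCm38.p6) for 8 of the 10 members, all but Fgfr1 and Spry4. The Fgf2 window (chr3:37348403-37348652) overlaps the Fgf2 gene, which begins at 37348477. The second windows of Fgfr3 and Etv5 lie within their genes. The member windows were searched on both strands for the AP-1 motif TGANTCA, the CRE motif TGACGTCA, the ETS motif CCGGAA and the GC box GGGCGG. Of all 32851 windows of this length, 6.75% held the AP-1 motif, 1.55% the CRE, 12.03% the ETS motif and 32.7% the GC box. No member window held any of the first 3 letter strings, which says only that these letters are not in these windows. The windows of the 2 receptors that moved in opposite directions in Mapk9 KO are shown, with GC boxes in capitals (CCGCCC is the box read on the other strand).
Fgfr3 (chr5:33721474-33721723, plus strand): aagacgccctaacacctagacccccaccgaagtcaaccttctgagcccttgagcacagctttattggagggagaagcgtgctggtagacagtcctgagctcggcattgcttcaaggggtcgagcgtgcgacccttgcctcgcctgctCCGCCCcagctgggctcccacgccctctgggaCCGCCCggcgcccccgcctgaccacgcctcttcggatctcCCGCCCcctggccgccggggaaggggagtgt
Fgfr2 (chr7:130266809-130267058, minus strand): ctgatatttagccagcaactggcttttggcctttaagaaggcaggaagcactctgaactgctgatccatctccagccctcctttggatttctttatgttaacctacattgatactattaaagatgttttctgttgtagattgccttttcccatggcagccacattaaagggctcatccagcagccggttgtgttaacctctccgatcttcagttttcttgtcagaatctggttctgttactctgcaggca

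The Fgfr3 window shown held 3 GC boxes, a second Fgfr3 window (chr5:33722056-33722305) 2, and the Fgfr2 window 0. Of the other members, the Fgf2, Fgf18 and Spry1 windows held 1 each, Spred1 2, Etv5 3 in its first window and 0 in its second, and Spry2 0. Members with a GC box were thus found among those that rose, those that did not pass and those without a usable probe.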

How the data were processed

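Total RNA of 12 pooled hip cartilage samples was hybridized to Illumina BeadChips. The authors deposited bead signal intensities of 45281 probes without background correction, each with a detection p-value. The authors then corrected the background with negative control probes, normalized with vsn and deposited log2 values of 21004 probes. The version of vsn is not given in the sources used here. Such filtering and background correction leave dim probes with wide, less certain differences. Sequencing depth does not apply, and the number of arrays limits the precision.

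Groups came from the sample labels, and replicates are independent by the methods. Each comparison was fitted on all 21004 probes with limma 3.58.1 (lmFit, eBayes) in R 4.3.3 and Benjamini-Hochberg adjustment, the 4 pairwise comparisons on 6 arrays and the interaction and average on 12. Calls needed an adjusted p under 0.05 with more than a 2-fold change, and the adjusted p alone for the interaction. Where a probe was not detected on any array of a group, the fold was bounded by setting each array of that group to the lowest value of any detected probe on it, where that was higher. Scripts were tested on simulated data first. Tables were made with Python 3.11.15 and pandas 2.3.3.

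Named genes were all probes of the 10 members, Mapk9, genes of the pathway lists that passed in either injury comparison, and the 2 genes most correlated with each member. Marker lists counted a gene as changed when any of its probes passed. Members and lists were chosen with earlier results of these data known. Arrays that share a replicate number deviated alike from their group means (r from 0.153 to 0.390 in 18 pairs, against -0.289 to 0.0825 in the 36 others). Such deviations cancel out within a group, so the 36 values follow in part from the 18 and are no separate evidence. The main fits took no account of the replicate number. The number was a block in an alternative fit, and the blocked value is given where it changes a call. Alternatives were neqc (offset 16) on the table's probes and on all probes, quantile normalization with no background correction, centring on array medians, detection filters, fold limits of 1.5 and none, 1 probe per gene, 12 arrays in 1 fit, the replicate block, the label code number as a block, a Student's t-test and leaving out each array. The study names that t-test for genes in a figure legend. The metabolite data of the study were not analysed here. Some results that fall under the rule for named genes are not reported here.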

Additional observations from a re-analysis of the deposited data

Results flagged for a closer look

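The injury change of Fgfr3 differed between the genotypes when the replicate number was a block. The change in Mapk9 KO minus that in WT was 2.21 on the log2 scale (limma SE 0.23, adjusted p = 0.0137, 3 arrays per group), and without the block the same value had an adjusted p of 0.312. Quantile normalization without background correction, also without the block, gave 1.23 for Fgfr3 with a limma adjusted p of 0.222. Among control hips Fgfr3 was 1.20 lower in Mapk9 KO than in WT, which did not pass (limma adjusted p = 0.547, and 0.146 with the block). Among injured hips it was 1.01 higher, with a limma adjusted p of 0.28, and 0.04998 with the block. Each direction was seen at 3 of 3 replicate numbers. One probe detected on 11 of 12 arrays carries this result, and the other Fgfr3 probe was not detected. Groups of 3 arrays were too small for the search for single outlying samples.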

How the results depend on the processing

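Each array was left out in turn and 13 other settings were tried. Of 480 values without 1 array 447 kept their direction and their side of the threshold, 8 lost it, 3 gained it and 22 changed sign. Of 684 values in other settings the counts were 652, 13, 4 and 15.

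Quantile normalization without background correction, which compresses dim probes, left 1 member called in WT injury in place of 2, 3 in Mapk9 KO in place of 5 and 1 for the average effect in place of 5. Over all 21004 probes the calls fell as well, from 3086 to 1140 in WT, from 3934 to 1756 in Mapk9 KO and from 3354 to 1413 for the average effect. With only probes detected on all 12 arrays, 4 genes were tested and 1 was called in each of these comparisons. Of the 13973 probes kept, 1710 passed in WT, 2147 in Mapk9 KO and 1800 for the average effect. A Student's t-test left 1 member in WT, where it called 1624 of all probes against 3086. The replicate block gave 1 member, Fgfr3, for genotype in injured hips and 1 for the interaction in place of 0, and changed no other call. Of all probes, 188 and 112 passed in these comparisons with the block, against 38 and 0 without it. Without 1 array the members called lay between 2 and 3 in WT and between 2 and 5 for the average effect, with 2 without WT control 2 and 3 without WT injured 1. Calls over all probes then lay between 2788 and 3415 in WT and between 3324 and 3410 for the average effect. Over all probes the interaction gave 242 calls without WT control 3, with 0 members among them.

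All sign changes were in values that passed in no setting. For Spred1 in WT the value was -0.054 with neqc on either probe set and -0.050 with quantile normalization. For Spry4 in control hips it was 0.023 with array medians subtracted. In injured hips, with neqc (either probe set) and quantile normalization, it was 0.0072 and 0.0081 for Fgfr1, 0.048 and 0.045 for the brighter Fgfr2 probe and 0.072 and 0.067 for Spred1, and with the label code block 0.12 for Fgfr1 and 0.021 for Spred1. Without 1 array the ranges were -0.083 to 0.24 for Fgfr1, -0.30 to 0.36 for Fgfr3, -0.046 to 0.14 for Spred1 and -0.46 to 0.043 for the dimmer Etv5 probe in WT, -0.62 to 0.27 for Fgf18 and -0.12 to 0.18 for Spry4 in control hips, -0.15 to 0.19 for Fgfr1, -0.15 to 0.075 for the brighter Fgfr2 probe, -0.094 to 0.088 for Spred1, -0.11 to 0.37 and -0.13 to 0.083 for the dimmer and brighter Etv5 probes in injured hips, -0.018 to 0.49 for the brighter Etv5 probe in the interaction and -0.10 to 0.15 for the dimmer one in the average.

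Dim probes limit these results. Fgf2 and Spry4 in both control groups, and Fgf18 in Mapk9 KO controls, were not detected, so that their fitted changes depend on values below background, and only the folds given as at least are bounds. Fgfr3 was near background in Mapk9 KO controls, so the size of its rise there is uncertain too.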
